A study of Mus musculus with 8 samples.

Results

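A set of 10 genes that mark the endothelium of blood vessels was followed through the 3 gene expression tables of JunB cKO and wild type mouse skin, namely Pecam1, Cdh5, Kdr, Flt1, Tek, Tie1, Emcn, Vwf, Esam and Eng. They were chosen by name, and where a symbol stood at several gene loci the locus with the largest summed level was used. The 10 genes are among 21441 single gene symbols that all 3 tables list. JunB, an AP-1 transcription factor, was deleted with a Cre recombinase driven by the K14 promoter, that is, in basal epidermal cells and not in endothelium. All mice were C57BL/6, labelled JunB +/+ (wild type) or JunB -/- (JunB cKO). The study asked how gene expression differs between the genotypes in unperturbed skin of 60-day-old mice, 4 days after hair plucking at postnatal day 54, and in 30-day wounds made as full-thickness excisions of back skin. The age of the wounded mice is not given in the sources used here.

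Endothelial cells line the vessels. Their junctions are held by adhesion proteins such as PECAM1 and VE-cadherin, and their growth and survival are governed by the receptors for VEGF and the angiopoietins and by the TGF-beta co-receptor endoglin. In skin, the vessels lie in the dermis, the subcutis and around hair follicles, whereas the epidermis holds none. During wound healing new capillaries grow into the wound bed and later regress, and the vessels around hair follicles change with the hair cycle.

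RNA of 3 samples was pooled for each library. The 8 libraries are 1 per genotype for the unperturbed and the hair plucking comparison and 2 per genotype for wounds. Each table holds 1 FPKM value per genotype and gene, that is, a fragment count scaled for transcript length and library size, also for wounds. Hence no spread between mice or libraries can be given, no test was made, and a gene was counted as differing only by the size of its ratio. Ratios are given as log2((JunB cKO + 0.1)/(wild type + 0.1)) of the FPKM values, so that positive values mean higher in JunB cKO. In every pair of values, the wild type value comes first. Estimated from the smallest steps of the values, 1 FPKM on a transcript with 1 kb of effective length stood for 16.9 against 4.98 reads in the unperturbed pair, 16.3 against 12.9 after plucking, and 43.3 against 40.3 in wounds. Intervals quoted for ratios are exact 95% binomial intervals on reads estimated in this way, without the added 0.1. At low FPKM these intervals are therefore not centred on the quoted ratio. They cover counting error only, and they are too narrow where reads are not independent molecules.

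Junb, the deleted gene, was lower in the JunB cKO column of every table, at 268 against 31.4 FPKM in the unperturbed pair, 40.8 against 11.7 after plucking and 33.4 against 15.4 in wounds. The unperturbed pair is labelled as keratinocytes isolated with trypsin. The plucked pair has the same tissue label but is called a skin biopsy in its title and treatment. Fibroblast and skeletal muscle markers were present in the plucked pair, with a summed level of 5185 and 202 FPKM in wild type, against 31.9 and 3.73 FPKM in the unperturbed wild type column, where the tables were scaled separately. Keratinocyte markers were abundant in all columns.

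The control regions of a few of the receptors are shown to place the genes in the genome. The window of 250 bases before the gene start was taken from RefSeq (GRCm38.p6), in which 6 of the 10 genes were matched by symbol (Kdr, Flt1, Tek, Tie1, Emcn and Eng). Pecam1, Cdh5, Vwf and Esam were not matched. One receptor is shown for each ligand family (VEGF, angiopoietin and TGF-beta), a choice made after the values were seen. Capitals mark CAGGAA or CCGGAA on either strand, a core that ETS factors are known to bind, and the windows are written 5′ to 3′ along the gene.
Kdr, chr5:75978456-75978705, minus strand: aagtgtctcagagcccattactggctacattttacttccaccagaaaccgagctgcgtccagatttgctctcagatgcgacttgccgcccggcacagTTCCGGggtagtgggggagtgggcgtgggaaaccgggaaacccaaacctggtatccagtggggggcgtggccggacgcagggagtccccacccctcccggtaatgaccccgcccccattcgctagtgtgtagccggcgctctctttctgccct
Tek, chr4:94739039-94739288, plus strand: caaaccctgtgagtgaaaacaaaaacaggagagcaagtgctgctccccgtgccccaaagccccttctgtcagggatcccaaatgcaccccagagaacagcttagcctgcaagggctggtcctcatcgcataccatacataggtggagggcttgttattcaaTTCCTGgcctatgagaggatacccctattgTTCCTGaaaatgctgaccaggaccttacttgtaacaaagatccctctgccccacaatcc
Eng, chr2:32646345-32646594, plus strand: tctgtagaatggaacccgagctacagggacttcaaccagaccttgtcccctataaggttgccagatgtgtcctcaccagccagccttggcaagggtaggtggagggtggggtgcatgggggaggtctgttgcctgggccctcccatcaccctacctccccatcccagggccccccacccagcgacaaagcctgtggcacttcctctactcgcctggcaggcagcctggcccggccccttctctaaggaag
The Kdr window held 1 such core, whose first base lay at position -153 from the gene start, the Tek window held 2 and the Eng window none. Of the 6 windows, 4 held the core, against 35.1% of 32851 windows of the same length in the genome. The gene starts used for the windows are those of RefSeq and can differ from the gene coordinates given below. The Tie1 window (chr4:118489850-118490099), which held 1 core, lies mostly inside the coordinates given for that gene. The AP-1 motif TGANTCA was read on either strand and lay in 0 of the 6 windows and in 6.75% of all windows. Other cores of ETS factors were not searched, so a window without a match may still hold one. A match is a description of the letters and says nothing about binding.

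In the unperturbed pair, the endothelial genes were close to the lowest levels the libraries resolve. Their FPKM lay between 0.0322 and 0.348 in wild type, which corresponds to an estimated 2 to 44 reads per gene, and between 0.164 and 1.12 in the mutant, or 2 to 24 reads. All 10 were higher in JunB cKO, and their median log2 ratio was 1.65. Among all 7811 symbols whose higher value was above 0 and at most 1 FPKM, 93.6% were likewise higher in JunB cKO, and the median of their log2 ratios was 2.14. The sharing of this direction by the 10 genes is therefore no result about endothelium.

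Pecam1 was the only member that reached the minimum of 1 FPKM set for a call, at 0.0776 against 1.12, and the only member called on the higher side by the 2-fold limit. It reached the minimum through the JunB cKO column alone, the column where it was high. Of all 15883 symbols that reached it in either column, the limit was passed on the higher side by 22.1% and on the lower side by 2.35%. Olfactory, vomeronasal and taste receptor genes were used as a gauge of background, since skin is not known to make most of them. Of these 1487 genes, 95.1% were listed at 0 in the wild type column, but only 13.8% in the JunB cKO column, where their median was 0.543 FPKM. All 10 endothelial genes of the JunB cKO column lay between the 5th and the 95th percentile of these receptor genes (0 and 1.65 FPKM), and 6 lay above their median. With the receptor median subtracted from each column and lower values set to 0, the median log2 ratio of the members was -0.49 in place of 1.65. The wild type receptor median was 0, so only the JunB cKO column was lowered. This median lies between the ratios of Kdr (-0.42) and Emcn (-0.57), whose JunB cKO values were set to 0. Its sign is thus given by that floor, the added 0.1 and the wild type values, and is no measured lower level.

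**Figure D1:**
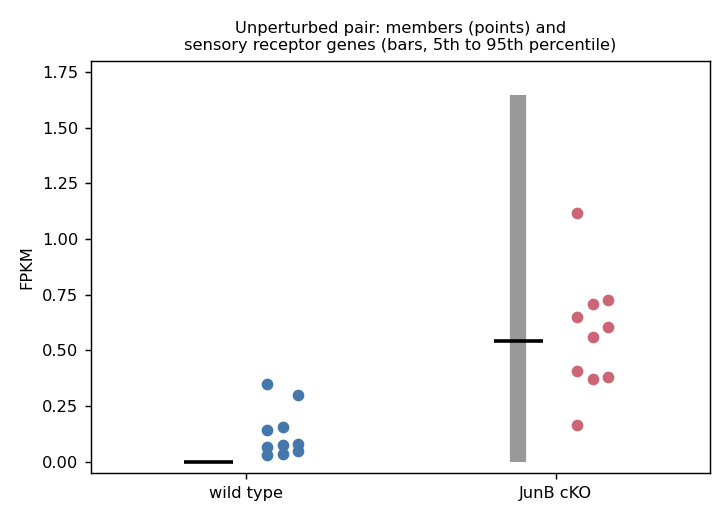
FPKM in the unperturbed wild type and JunB cKO columns. Points are the 10 endothelial genes, grey bars span the 5th to the 95th percentile of 1487 sensory receptor genes and black lines are their medians (0 and 0.543 FPKM). In JunB cKO all 10 points lie within the grey bar, whereas in wild type the bar has no height and all points lie above it.

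Within this pair, Vwf and Eng had the highest wild type values (0.302 and 0.348 FPKM) and ratios near the bottom of the group (0.23 and 0.56 on the log2 scale). Vwf encodes von Willebrand factor, which captures platelets. Its counting interval ran from -0.62 to 1.16, and that of Eng from -0.64 to 1.90. Tie1, an orphan receptor of the angiopoietin system, was listed at 0.0322 against 0.709, which rests on an estimated 2 and 14 reads.

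In skin 4 days after hair plucking and in 30-day wounds all 10 genes were measured well above this floor. Estimated reads per gene ran from 64 to 1607 after plucking and from 379 to 14811 in wounds. Sensory receptor genes had a median of 0 in all these columns. After plucking, 3 of the 10 genes were higher and 7 were lower in JunB cKO, and their median log2 ratio was -0.33. In wounds, 9 were higher and Tek was lower, with a median of 0.36. The difference between the tables was not tested. The summed FPKM of the 10 genes was 101 against 75.1 after plucking, and 165 and 231 in wounds. Over all symbols that reached 1 FPKM, the median ratio was 0.03 after plucking and 0.02 in wounds. In these symbols, 51.2% after plucking (of 16221) and 51.4% in wounds (of 17346) were higher in JunB cKO. Since the samples are bulk RNA, fewer endothelial cells and less RNA per endothelial cell cannot be told apart.

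**Figure D2:**
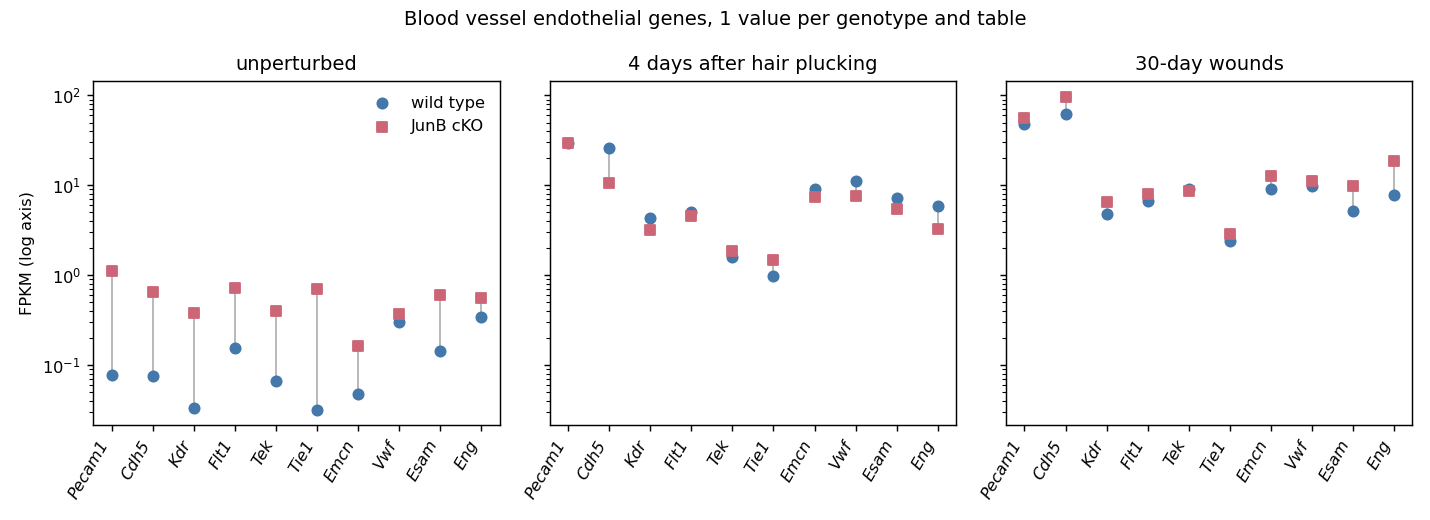
FPKM (log axis) of the 10 endothelial genes in each table, with circles for wild type and squares for JunB cKO, joined by a grey line for each gene. The tables were scaled separately. Of the 10 squares, 7 lie below their circles after plucking and 9 above them in wounds.

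A member was counted as differing when its ratio reached 2-fold. After plucking this held for Cdh5 alone, on the lower side, where 18.7% of all symbols lay, and for no member on the higher side, where 21.0% lay. In wounds it held for Eng alone, on the higher side, where 9.08% of all symbols lay, and for no member on the lower side, where 7.67% lay. These counts, 1 of 10 members in each table, were no higher than the background after plucking and near it in wounds. All 10 members had reached the minimum of 1 FPKM in both tables, Tie1 after plucking only through its JunB cKO value.

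**Figure D3:**
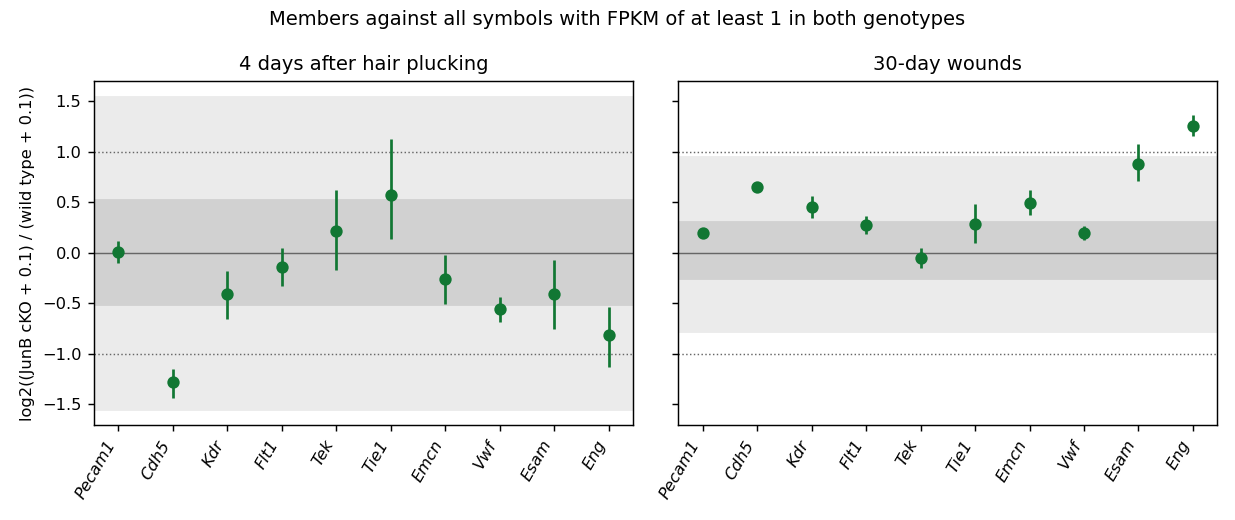
Log2 ratio of JunB cKO over wild type for the 10 endothelial genes after hair plucking (left) and in wounds (right). Bars are 95% counting intervals, the dark grey band runs from the 25th to the 75th and the light grey band from the 5th to the 95th percentile of all symbols that reached 1 FPKM in both columns, and dotted lines mark 2-fold. After plucking all members lie inside the light band, and in wounds only Eng lies above it.

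The junction genes were the most abundant members. Pecam1 (chr11:106654217-106750628, minus strand, GRCm38) encodes an adhesion protein of endothelial contacts that platelets and several leukocytes also carry. After plucking it was listed at 29.5 against 29.6 FPKM, a log2 ratio of 0.01 with a counting interval from -0.10 to 0.12. In wounds it was listed at 48.7 and 55.6 FPKM (log2 ratio 0.19). Thus Pecam1 was level between the genotypes after plucking and slightly higher in JunB cKO wounds.

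Cdh5 (chr8:104101625-104144511, plus strand) encodes VE-cadherin, the cadherin of endothelial adherens junctions. After plucking its level was 26.0 against 10.6 FPKM, or 2.45-fold lower, with a log2 ratio of -1.29 and a counting interval from -1.44 to -1.15. In wounds it was 61.5 against 96.9, or 1.58-fold higher (log2 ratio 0.66, interval 0.62 to 0.69). The balance of both junction genes differed between the genotypes after plucking. The ratio of Pecam1 to Cdh5 within a column was 1.13 in plucked wild type and 2.80 in plucked JunB cKO, against 0.792 and 0.574 in wounds. The plucked table lists a further Cdh5 locus at 0 in both genotypes. The GENCODE annotation holds 2 transcripts of Cdh5, of 3995 and 346 bases, and an FPKM summed over transcripts weighs reads given to the short one more. The level of Cdh5 relative to other genes and the estimate of its reads carry this limit. So do those of Esam, Eng, Flt1, Vwf and Tek, whose shortest annotated transcripts hold 216, 258, 274, 334 and 361 bases.

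Esam (chr9:37528078-37538319, plus strand) encodes an adhesion protein of endothelial tight junctions that platelets also carry. It was listed at 7.19 against 5.40 FPKM after plucking, and at 5.25 and 9.75 in wounds. Its log2 ratio was -0.41 in the first (interval -0.75 to -0.07) and 0.88 in the second (interval 0.71 to 1.08). Esam had the second largest ratio of the members in wounds.

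Kdr (chr5:75932827-75978458) and Flt1 (chr5:147561604-147726011), both on the minus strand, encode VEGF receptors, of which the KDR protein carries most of the growth signal and FLT1 binds VEGF tightly and can act as a decoy. Kdr was listed at 4.32 against 3.23 FPKM after plucking (log2 ratio -0.41, interval -0.66 to -0.18). In wounds it was listed at 4.80 and 6.58 (log2 ratio 0.45, interval 0.35 to 0.57). Flt1 differed less, with 5.04 against 4.57 FPKM after plucking (log2 ratio -0.14, interval -0.33 to 0.05) and 6.72 against 8.12 in wounds (log2 ratio 0.27, interval 0.18 to 0.36). The level of Kdr relative to Flt1 was 0.856 against 0.706 after plucking, and 0.714 and 0.810 in wounds. Flt1 was thus listed higher than Kdr in all 4 columns. The shortest annotated transcript holds 274 bases for Flt1 and 3174 for Kdr, so this order carries the limit given for Cdh5.

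Tek (chr4:94739289-94874976, plus strand) encodes TIE2, the receptor of the angiopoietins, and Tie1 (chr4:118471191-118490061, minus strand) its orphan relative, which modulates TIE2. After plucking they were the only members besides Pecam1 with a higher value in JunB cKO. Tek was 1.59 against 1.86 FPKM (log2 ratio 0.21, interval -0.17 to 0.62), and Tie1 was 0.972 and 1.496 (log2 ratio 0.57, interval 0.13 to 1.13). Both rested on few reads, an estimated 64 to 115 per column. In wounds Tek was the only member with a lower value in JunB cKO, at 9.12 and 8.77 FPKM, and its interval from -0.16 to 0.04 included no difference. Tie1 was 2.38 and 2.92 FPKM in wounds (log2 ratio 0.28). Between the plucked and the wound table, scaled separately, the wild type level of Tek was 5.75-fold higher in wounds, the widest such gap of the 10 genes in wild type. In JunB cKO the widest gaps were those of Cdh5 (9.14-fold) and Eng (5.70-fold). The ratio of Tek to Tie1 was 1.63 against 1.24 after plucking, and 3.83 and 3.01 in wounds.

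Eng (chr2:32646595-32682669, plus strand) encodes endoglin, a co-receptor for ligands of the TGF-beta and BMP family that is abundant in growing vessels and is also made by some stromal cells and macrophages. After plucking it was listed at 5.85 against 3.27 FPKM, a log2 ratio of -0.82 with an interval from -1.14 to -0.54. In wounds it was listed at 7.77 and 18.6, a 2.40-fold higher value in JunB cKO (log2 ratio 1.25, interval 1.16 to 1.37). Eng thus had the largest ratio of the members in wounds and, after Cdh5, the lowest after plucking. The locus range of Eng also holds Fpgs, an enzyme of folate metabolism on the opposite strand, which has a row of its own. Fpgs was 3.96 and 12.5 FPKM after plucking and 4.03 and 4.36 in wounds, so that it was higher in JunB cKO in both tables, as Eng was in wounds only. In the wound table a further row in this range, with the symbols AL772271.1 and Gm26236, was 2.98 FPKM in wild type and listed at 0 in the mutant. The part of these rows in the Eng values was not tested. Whether the authors' counting used strand is not given in the sources used here.

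Emcn and Vwf stand for vessel type. Emcn (chr3:137341067-137432185, plus strand) encodes endomucin, a surface mucin of capillaries and veins, and was 9.03 and 7.52 FPKM after plucking (log2 ratio -0.26, interval -0.51 to -0.02). In wounds Emcn was 9.06 and 12.8 (log2 ratio 0.49, interval 0.37 to 0.62). Vwf (chr6:125546774-125686679, plus strand), which is most abundant in larger vessels and veins, was 11.2 against 7.54 after plucking (log2 ratio -0.56, interval -0.69 to -0.44). In wounds Vwf was 9.75 and 11.2 (log2 ratio 0.19, interval 0.13 to 0.26). Both were lower in JunB cKO after plucking and higher in wounds, with the larger gap for Emcn in wounds and for Vwf after plucking.

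Within the skin columns, Cdh5 and Pecam1 held the highest ranks in all 4 and Tie1 the lowest, whereas the order between them varied. Tek took rank 9 of 10 in both genotypes after plucking, but rank 4 in wild type wounds and rank 7 in JunB cKO wounds. Eng took ranks 6 and 7 after plucking and ranks 6 and 3 in wounds, and Esam rank 5 in both genotypes after plucking and ranks 8 and 6 in wounds. FPKM is per length, so levels of different genes may be set side by side within a column, within the limit of short transcripts given for Cdh5. Without replicates the order of neighbours has no error estimate.

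Other genes of endothelium, taken from a list of 30 that excludes the members, leaned the same way. Not all of them are confined to endothelium, since the list holds Cd34, which the study used as a marker of hair follicle stem cells. Leukocyte markers were also lower in JunB cKO after plucking, with a median log2 ratio of -1.34. The part of other cells in the values of this list was not tested. After plucking, 21 of them reached 1 FPKM in either genotype, of which 5 were higher and 16 were lower in JunB cKO, and their median log2 ratio was -0.78. Past the 2-fold limit were 2 on the higher and 8 on the lower side, where 21.0% and 18.7% of all symbols lay. In wounds 24 reached 1 FPKM, of which 22 were higher and 2 lower, with a median of 0.48, and 3 passed the limit on the higher side, where 9.08% of all symbols lay. Cldn5, the main claudin of endothelial tight junctions, was 3.38 against 0.512 FPKM after plucking, and 8.11 and 13.0 in wounds. Plvap, which builds the diaphragms of fenestrated capillaries, was 6.89 and 3.98 after plucking and 8.40 and 10.7 in wounds. Not all genes of the list leaned with Cldn5. Icam2 was listed at 0 in plucked wild type and at 5.74 in plucked JunB cKO, and Erg, an ETS factor of endothelium, was 1.69 and 4.49. In wounds the largest ratio belonged to Sox18, a transcription factor of vessel and lymphatic formation, at 1.09 and 3.28 FPKM, and the smallest to Fli1, an ETS factor also made by blood cells, at 10.9 and 9.72.

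The ligands of the receptors did not all lean with them. Vegfa, the main VEGF of skin and made by keratinocytes as well, was 11.1 against 22.5 FPKM after plucking, and 21.6 and 28.7 in wounds. With a log2 ratio of 1.01, it alone of the 6 ligands at 1 FPKM passed the limit on the higher side after plucking, where 21.0% of all symbols lay. On the lower side, where 18.7% lay, 2 ligands passed it. The receptors of Vegfa, Kdr and Flt1, were lower after plucking, Flt1 within counting error. Vegfb, a ligand of FLT1, was 3.39 and 3.33 after plucking and 1.61 and 6.64 in wounds. Pgf, the placental growth factor and likewise a ligand of FLT1, was listed at 0 in both genotypes after plucking and at 0.493 and 1.62 in wounds. Angpt1, the activating ligand of TIE2 made by perivascular and mesenchymal cells, was 1.96 and 0.0191 after plucking but 4.92 and 6.07 in wounds. Angpt2, the ligand that loosens vessels, was 3.82 and 6.10 after plucking and 7.40 and 8.10 in wounds. Vegfc, a growth factor of lymphatic vessels, was 15.2 in plucked wild type and listed at 0 in plucked JunB cKO, and 2.80 and 1.03 in wounds. Of the 9 ligands listed, 3 were higher and 3 were lower after plucking, and 6 were higher and 2 lower in wounds, among those that reached 1 FPKM.

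Partners of the receptors gave a mixed picture. Of 9 co-receptors, adaptors and phosphatases, 2 were higher and 7 lower in JunB cKO after plucking (median log2 ratio -0.40), and 6 were higher and 3 lower in wounds (median 0.18). Dok2, an adaptor of TIE2 signalling that is also made by blood cells, was the extreme in both tables, at 10.7 and 0.974 FPKM after plucking and at 11.9 and 29.5 in wounds. Of the TGF-beta and BMP receptor list, 8 genes reached 1 FPKM after plucking, with 2 higher and 6 lower, and 9 in wounds, with 6 higher and 3 lower. Acvrl1 encodes ALK1, the endothelial receptor that works with endoglin, and it was 5.08 and 0.892 after plucking and 10.4 and 14.1 in wounds. Notch4, an endothelial Notch receptor, was 0.261 against 11.8 FPKM after plucking, but 3.69 and 3.26 in wounds. It thus leaned against most endothelial members in both tables, in wounds by a log2 ratio of -0.18 for which no interval was estimated. Of the endothelial Notch list that Notch4 belongs to, 5 genes were higher and 4 lower after plucking (median 0.12). In wounds 6 were higher and 4 lower (median 0.08), among those that reached 1 FPKM.

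**Figure D4:**
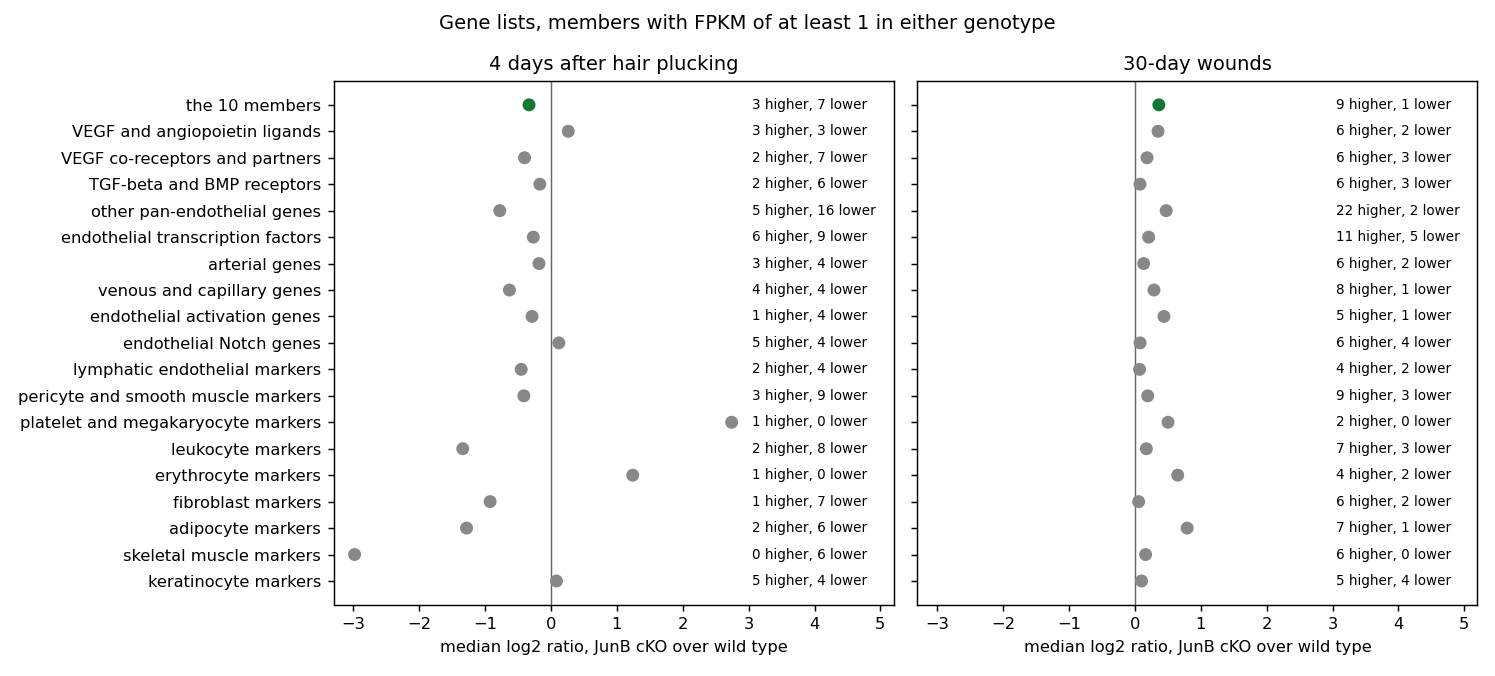
Median log2 ratio of JunB cKO over wild type for the 10 members (green) and 18 gene lists (grey), after hair plucking (left) and in wounds (right), over genes that reached 1 FPKM in either column, with the number of genes higher and lower written beside each. After plucking the muscle, leukocyte, adipocyte and fibroblast lists lie further below 0 than the members do. So do the other pan-endothelial, venous and capillary, lymphatic, pericyte and VEGF co-receptor lists. The keratinocyte list lies near 0 in both tables.

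Markers of other cells of the dermis and subcutis differed in the same tables. After plucking, all 6 listed skeletal muscle markers were lower in the mutant, with a median of -2.98 on the log2 scale and summed levels of 202 and 26.0 FPKM. Leukocyte markers had a median of -1.34, with 8 of 10 lower and summed levels of 442 and 190 FPKM. Adipocyte markers had a median of -1.28 (6 of 8 lower, summed 102 and 46.9) and fibroblast markers of -0.92 (7 of 8 lower, summed 5185 and 1910). Pericyte and smooth muscle markers had a median of -0.41 with 9 of 12 lower, close to that of the endothelial members. Keratinocyte markers had a median of 0.08, with 5 of 9 higher. None of these lists had a marker at 0 in plucked wild type except Retn of the adipocyte list, whereas in JunB cKO Adig and Mb were at 0. Lymphatic markers had a median of -0.45 (4 of 6 lower), but their summed level was 35.8 and 36.6 FPKM, with Stab2 and Lyve1 higher in JunB cKO. Hence lower values of the endothelial genes after plucking went with lower values of most muscle, leukocyte, adipocyte, fibroblast, pericyte and lymphatic markers. Their part in the result was not tested.

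In wounds these lists were closer to level. The medians were 0.16 for skeletal muscle (6 of 6 higher), 0.17 for leukocytes (7 of 10 higher), 0.06 for fibroblasts (6 of 8 higher), 0.20 for pericytes and smooth muscle (9 of 12 higher) and 0.10 for keratinocytes (5 of 9 higher). Of the other cell types, only adipocyte markers, with 0.79 and 7 of 8 higher (summed 471 and 856 FPKM), erythrocyte markers, with 0.65 and 4 of 6 higher, and platelet markers, with 0.50 in 2 genes, had a larger median than the endothelial members. Their part in the result was not tested. The 2 platelet genes were Pf4, at 32.1 and 33.3 FPKM (log2 ratio 0.05), and Itga2b, at 6.89 and 13.5 FPKM (log2 ratio 0.96). Ppbp (0.736 and 0.286) and Gp1ba (0.750 and 0.151) stayed below 1 FPKM and were lower in JunB cKO. Gp9 and Gp6 were at 0 in both genotypes.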

How the data were processed

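The authors pooled RNA of 3 samples per library, depleted rRNA, prepared stranded libraries, trimmed and filtered the reads with the FASTX toolkit, aligned single-end reads to GRCm38 (mm10 in the labels) with TopHat and HISAT2, and used Cufflinks and Cuffdiff, per the study's methods and the submitters' processing notes. Each of the 3 deposited tables holds 1 FPKM value per genotype and gene locus as calculated by the authors. Columns with the authors' own fold changes, test statistics, p-values and calls were not used. The tables list 26457 loci for the unperturbed pair, 47990 for plucking and 46726 for wounds, and were normalized separately.

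Samples were grouped by their labels. The wound table does not separate the 2 libraries of a genotype. Loci with a single symbol were kept, with a pseudocount of 0.1, a minimum of 1 FPKM in either genotype and a 2-fold limit. The median over the members is over all 10 in every table. Depth was estimated from the steps of low FPKM values at all loci of 880 to 1000 bases, with a fragment length of 200 bases assumed. Reads per gene were estimated from the longest coding transcript in GENCODE M21. Files gave no library totals, so the estimate limits the precision. The calculations were tested on simulated data. Members and the 18 lists were chosen with earlier results of these data known. The rule for named genes was all members, Junb, up to 4 extremes of each list, the direct ligands (Vegfa, Vegfb, Pgf, Angpt1 and Angpt2), Notch4, Plvap and Cldn5, and the 5 genes most like the members. Fpgs, AL772271.1, Gm26236, Cd36, Ppbp, Gp1ba, Gp6, Gp9 and the genes listed at 0 were named after their values were seen. Coordinates are 1-based on GRCm38. Python 3.11.15, pandas 2.3.3, numpy 2.4.6, scipy 1.17.1 and matplotlib 3.10.9 were used. Other data of the study were not analysed here.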

Additional observations from a re-analysis of the deposited data

Results flagged for a closer look

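For 8 of the 10 endothelial genes, the ratio of JunB cKO to wild type pointed one way after hair plucking and the other way in wounds. The gap between both log2 ratios, in wounds minus after plucking, was 2.07 for Eng, 1.94 for Cdh5, 1.29 for Esam, 0.86 for Kdr, 0.75 for Emcn, 0.75 for Vwf and 0.41 for Flt1, all of which were lower in JunB cKO after plucking and higher in wounds. Tek went the opposite way, with a gap of -0.27. For 6 of the 8 genes, the counting intervals of both ratios lay on opposite sides of 0. For Flt1 after plucking and for Tek in both tables they included 0. Over all symbols that reached 1 FPKM, 51.2% after plucking and 51.4% in wounds were higher in JunB cKO. The share of all symbols with opposite directions, or with intervals on opposite sides of 0, was not computed. The counts of 8 and 6 genes are therefore not read as particular to endothelium. Each table holds 1 value per genotype, so that the difference between the tables was not tested, and plucked and wounded skin also differ in tissue and day of sampling.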

How the results depend on the processing

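No paired analysis was possible because the wound table gives 1 value per genotype, so that the numbered libraries are not separated, and fits that leave out 1 library were not run for the same reason. In the unperturbed pair, a pseudocount of 1 gave a median log2 ratio of 0.45 and 0 members at least 2-fold different, no minimum FPKM gave 7, and subtracting the median of the receptor genes turned the median to -0.49, with Kdr at -0.42, Tek at -0.73 and Esam at -0.57. A minimum of 10 FPKM left no member there, and loci with the status OK left Pecam1 alone (2.78). With a 1.5-fold limit, 2 members differed after plucking and 3 in wounds. The shares of all symbols past this limit were not computed, so these counts have no background. The members' median stayed on its side of 0 under every other alternative tried after plucking and in wounds, which were pseudocounts of 0.01 and 1, no minimum and a minimum of 10 FPKM, centring, summed loci, status and left-out members, with ranges of -0.56 (minimum of 10 FPKM, 3 members) to -0.20 after plucking and 0.28 to 0.49 in wounds. Leaving out each member in turn gave medians from 1.60 to 1.69 in the unperturbed pair, -0.41 to -0.26 after plucking and 0.28 to 0.45 in wounds. The unperturbed values rest on an estimated 2 to 44 reads per gene and column.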

Other observations

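Genes that separate kinds of vessels were split in direction by count after plucking. Of the arterial list, 3 of the 7 genes that reached 1 FPKM were higher in JunB cKO and 4 were lower, and of the venous and capillary list 4 were higher and 4 were lower. The latter list had a median log2 ratio of -0.63 and summed levels of 273 and 66.5 FPKM, of which Cd36 held 216 and 32.8. Past the 2-fold limit were 2 of its genes on the higher and 4 on the lower side, where 21.0% and 18.7% of all symbols lay. Large gaps were found in both directions. Cd300lg, a receptor of capillary endothelium, was 2.56 FPKM in wild type against 8.05 in the mutant, and Aplnr, the apelin receptor of growing and venous endothelium, was 17.6 and 0.954. Gpihbp1, which carries lipoprotein lipase across capillaries, was listed at 0 against 4.48, and Rgcc at 21.7 against 2.60. In wounds, 8 of 9 genes of this list were higher in JunB cKO, led by Selp, the P-selectin of endothelium and platelets, at 0.954 and 4.01 FPKM. Lymphatic markers had a median log2 ratio of -0.45 after plucking (4 of 6 lower) and 0.07 in wounds (4 of 6 higher). Stab2, a scavenger receptor of lymphatic and sinusoidal endothelium, was 0.880 and 9.40 FPKM after plucking.

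Of 11337 genes that reached 1 FPKM in 4 or more of the 6 columns, the 5 whose profile was most like the mean of the members were Abcg2 (Pearson r of 0.9997 over 6 columns), Nav1 (0.999), Gpr153 (0.999), Cma1 (0.999) and Srpx2 (0.998). Abcg2 encodes an efflux transporter made by capillaries and other cells, and Cma1 a mast cell protease. A further count shows how little this picks out, since 929 genes had an r of at least 0.95. The 6 columns come from tables that were scaled separately, and r is carried largely by the gap between the unperturbed and the skin columns. The members themselves ranged from 0.924 for Tie1 to 0.997 for Flt1.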
